A study of Mus musculus with 4 samples.

Results

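Cholesterol and fatty acid synthesis was examined as a module of 32 genes among the 27745 gene names carried by the arrays. The members comprised 18 cholesterol synthesis enzymes, 4 genes of sterol regulation and transport and 10 fatty acid enzymes. A member was any non-control probe whose gene name on the array was on this list, and a gene with several probes was represented by its brightest probe. The cells were mouse embryonic fibroblasts (MEFs) of the C57BL/6J strain whose labels give the genotype as Lats2-/- (KO) or Lats2+/+ (WT). The Lats2 kinase belongs to the Hippo pathway and keeps YAP and TAZ in check in crowded cells. In each genotype a low density culture, taken at 48 h while subconfluent, was hybridised on 2-colour Agilent arrays against a contact-inhibited high density culture grown for 3 to 5 days. All cultures were kept in DMEM with inactivated fetal bovine serum, and no agent was added. Density and days in culture changed together and cannot be told apart.

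Cholesterol is built from acetyl-CoA through mevalonate and isoprenoid diphosphates to squalene, which is cyclised to lanosterol and then demethylated, reduced and desaturated to cholesterol. Fatty acid synthesis starts from the same acetyl-CoA through acetyl-CoA carboxylase and fatty acid synthase, and elongases and desaturases then lengthen and unsaturate the chains. The transcription factors encoded by Srebf1 and Srebf2 activate both routes when sterols are low, and Insig1 helps retain their precursors in the endoplasmic reticulum when sterols are plentiful.

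There were 4 arrays, 2 per genotype, the second being the dye swap of the first. The pair was counted as 1 replicate because the labels do not say that it used separate RNA, so no test was possible within a genotype or between genotypes, and the 2 values of each contrast measure technical agreement only. Both WT arrays lay on 1 slide, whereas the arrays labelled KO lay on 2 other slides scanned months apart, so slide and genotype cannot be told apart. Of 4 Lats2 probes, 3 gave higher signal on the arrays labelled KO, with mean log2 differences from 0.91 to 1.49 over both densities, against the label. The remaining probe read lower, at -0.63 at low and -1.26 at high density. In the array annotation (build mm8) the 3 higher probes lie close together, at chr14:56644080-56645305, and the lower one apart, at chr14:56676512-56676571. The 3 are thus not separate readings along the whole gene. The paper's supplement gives a western blot for the Lats2 knockout in its MEFs. The deleted part of the gene is not given in the sources used here, so the genotype is called by its label throughout. The pooled SD between the 2 values of a contrast was 0.141 for the density effect in WT, 0.205 in KO, and 0.159 at low and 0.21 at high density for the genotype difference. Fibroblast markers were above background in every culture, 9 of 9, and 0 to 2 of 5 macrophage, endothelial or epithelial markers were. The fibroblast markers did not have equal levels in all cultures. With density, Col3a1 had mean log2 ratios of 4.14 in WT and 3.44 in KO, and Fn1 of -1.60 in WT and 1.03 in KO. Between genotypes Pdgfra was higher in KO, by 4.46 at low and 3.10 at high density, whereas Vim was under 2-fold in each of these contrasts. Each of the 32 member probes was detected well above background in all 8 channels, as were 52.8% to 67.7% of all features in a channel.

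Promoter sequences are shown first for 6 members that fell at high density. Hmgcs1 is added, which did not fall but was the only member with a match to the sterol regulatory element searched for. RefSeq promoters (build GRCm38.p6, 250 bases before to 50 bases after the start site) were matched for 25 of 32 members. They were searched on both strands for a sterol regulatory element, TCACNCCAC, the kind of site bound by the Srebf proteins, and for the CCAAT box, which NF-Y binds beside many such elements. In the lines below, capitals mark the match, and a CCAAT box on the opposite strand reads ATTGG.
Hmgcs1, sterol regulatory element, chr13:119690203-119690232, + strand: acgtcaccgtcTCACCCCACttcccaggtc
Idi1, CCAAT box, chr13:8885550-8885575, + strand: gcctccagctgATTGGcgagcccggg
Cyp51, CCAAT box, chr5:4104712-4104737, - strand: gctgtccgccaCCAATctggtcctga
Sc4mol, CCAAT box, chr8:64733660-64733685, - strand: cttagcacggaCCAATcactgcacgg
Sc4mol, CCAAT box, chr8:64733619-64733644, - strand: agtggggcggaCCAATtacgacaggc
Hsd17b7, CCAAT box, chr1:169969264-169969289, - strand: gccgagtcgcgATTGGcgggcctaac
Sc5d, CCAAT box, chr9:42264310-42264335, - strand: gccggctgctgATTGGccggctgcct
Fads3, CCAAT box, chr19:10041431-10041456, + strand: tccccgggcagCCAATagatgtggag
Among the 25 members with a promoter, an exact match to TCACNCCAC was found only in Hmgcs1, and in 0 of the 7 that fell in either genotype. It lay 137 bases before the start site, and 1.24% of all promoters of this length held one. A CCAAT box was present in 73.3% of the member promoters against 37.4% of all promoters. By gene, 14 of 15 cholesterol enzymes with a promoter held a CCAAT box, among them Idi1, Cyp51, Sc4mol, Hsd17b7 and Sc5d, whereas 4 of 7 fatty acid enzymes did. The box was found in 6 of the 7 members with a promoter that were at least 2-fold lower in either genotype and in 15 of 18 other members. A match describes these letters and is not evidence of binding. The lack of a match is not evidence that a sterol regulatory element is absent, since only these exact letters in this stretch were searched.

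At high density most members read lower in both genotypes, 8 or fewer passed the 2-fold rule, and no member was 2-fold higher. In WT MEFs, 28 of 32 members had a log2 ratio of high over low density below 0, and 8 were at least 2-fold lower with the same sign on both arrays, the rule for a change used here. In MEFs labelled KO, 26 of 32 were below 0 and 7 were at least 2-fold lower. The counts below 0 include means at or near 0, Elovl5 at -0.01 in WT and Hmgcs1 and Dhcr7 at 0.00 in KO. Among all probes tested, 5.71% were 2-fold lower and 7.63% higher in WT, and 3.73% lower and 5.9% higher in KO. Of these changed probes 57.2% in WT and 61.3% in KO were higher, or 43.9% and 40.4% with median centring of the arrays. The 7 genes that fell in both genotypes were Idi1, Sc4mol, Hsd17b7, Sc5d, Stard4, Fads2 and Fads3, and Cyp51 was the further one in WT. Since RNA came from whole cultures, fewer cells expressing a gene and less of its RNA per cell cannot be told apart.

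**Figure D1:**
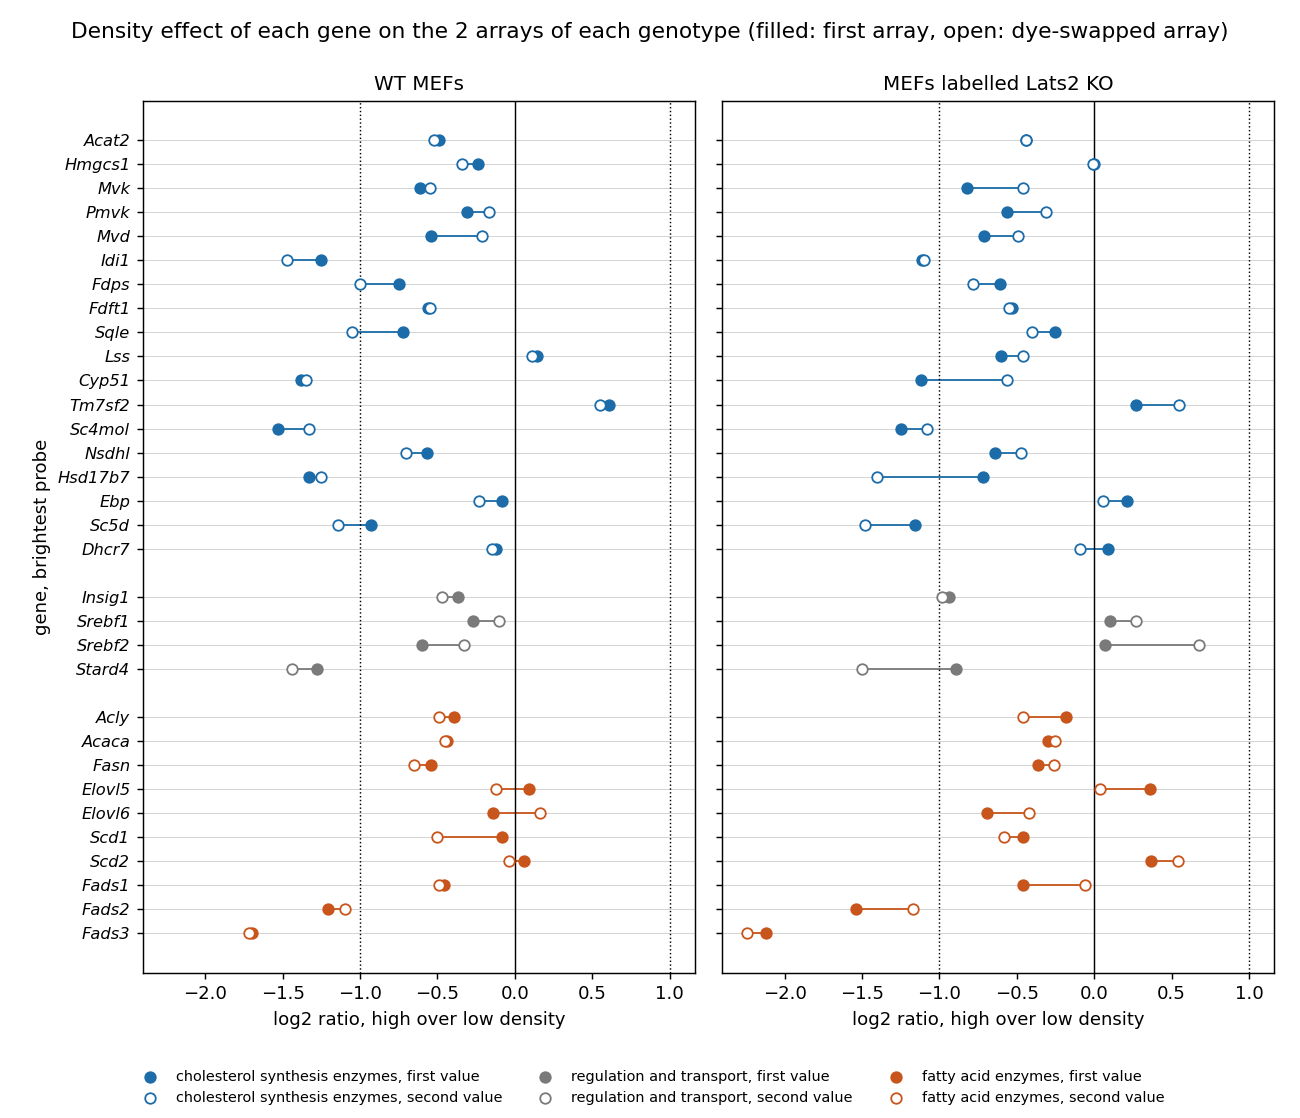
Log2 ratio of high over low density (x axis) for each of the 32 genes (y axis, in pathway order), with filled points for the first array and open points for its dye swap, joined by a line. Dotted lines mark a 2-fold change. Most genes lie left of 0 in both panels, Fads3 lies farthest left in both, and Tm7sf2 lies right of 0.

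Along the cholesterol route, the early steps showed values of under 2-fold. Acat2, which condenses acetyl-CoA, read -0.49 and -0.52 on the WT arrays and -0.44 on both KO arrays. Hmgcs1, which makes HMG-CoA, read -0.24 and -0.34 in WT and 0.00 and -0.01 in KO, where its other probes ranged from -0.39 to 0.80. The mevalonate kinases and decarboxylase Mvk, Pmvk and Mvd had mean values between -0.24 and -0.58 in WT and between -0.44 and -0.64 in KO. None of these 5 passed the rule in either genotype.

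The first gene of the route to fall was Idi1, the isomerase that supplies dimethylallyl diphosphate. Its normalised log2 intensity was 12.86 in Cy3 and 12.91 in Cy5 at low density in WT, and 11.44 and 11.61 at high density. In MEFs labelled KO it was 12.88 and 13.00 at low density and 11.90 and 11.76 at high density. The low and high density readings did not overlap in either genotype, which the rule for a fall largely fixes. The log2 ratios were -1.25 and -1.47 in WT and -1.11 and -1.10 in KO. A further Idi1 probe gave means of -1.22 in WT and -1.18 in KO. The array annotation (build mm8) places both probes on chromosome 2, while the RefSeq promoter of Idi1 is on chromosome 13, so both may read a related copy.

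Next along the route, Fdps, which makes farnesyl diphosphate, read -0.75 and -1.0 in WT and -0.61 and -0.78 in KO. Its other probe gave -0.73 in WT but 1.14 in KO, so the direction of Fdps in KO depends on the probe. Fdft1, the squalene synthase gene, read -0.56 and -0.55 in WT and -0.53 and -0.55 in KO. Sqle, the squalene epoxidase gene, read -0.72 and -1.05 in WT and -0.25 and -0.40 in KO. None of these 3 reached 2-fold on average, but Fdps passed with median centring (-1.12 in WT and -1.07 in KO). With that setting Sqle had a mean of -1.14 in WT but opposite signs on the arrays of the pair. Without the first WT array both Fdps and Sqle passed in WT.

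Of the 5 cholesterol enzymes that fell in WT, 4 act after squalene has been cyclised to lanosterol. Cyp51, the lanosterol demethylase gene, read -1.38 and -1.35 in WT, a 2.57-fold lower level, and -1.12 and -0.56 in KO, which missed the rule. In KO it passed with median centring (-1.08) and without the dye-swapped array, so a fall of Cyp51 in WT alone depends on the processing. Sc4mol, now named Msmo1, encodes the methylsterol oxidase and read -1.53 and -1.33 in WT and -1.25 and -1.08 in KO. Its log2 intensity fell from 14.83 (Cy3) and 14.58 (Cy5) to 13.25 and 13.31 in WT, and from 14.56 and 14.42 to 13.34 and 13.31 in KO. The high density readings of both genotypes thus lay between 13.25 and 13.34, under all 4 low density readings. Within a genotype the rule for a fall largely fixes this order.

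Hsd17b7, the ketosteroid reductase of the same demethylation complex, read -1.33 and -1.25 in WT and -0.72 and -1.40 in KO. The KO arrays differed for this gene by more than the WT arrays did, and without the dye-swapped array the KO ratio was under 2-fold. Its dimmer probe read -0.85 in KO, and with the mean over both probes the fall in KO was lost. Nsdhl, the dehydrogenase of that complex, read -0.57 and -0.70 in WT and -0.64 and -0.47 in KO, where its probes ranged from -0.57 to 0.66, so its KO direction depends on the probe.

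Sc5d, a sterol desaturase gene of the last steps, read -0.93 and -1.14 in WT and -1.16 and -1.48 in KO. Its dimmer probe read -0.32 in WT and 0.22 in KO, so its fall rests on the brightest probe, and in WT it was under 2-fold without the dye-swapped array. Dhcr7, which encodes the final reductase, read -0.12 and -0.15 in WT and 0.09 and -0.09 in KO. Ebp, the sterol isomerase gene, read -0.08 and -0.23 in WT and 0.21 and 0.06 in KO, where it was below 0 with median centring.

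Not all genes of the lanosterol steps had low values at high density. Tm7sf2, a sterol reductase gene, was the only cholesterol enzyme above 0 on all 4 arrays, at 0.61 and 0.55 in WT and 0.27 and 0.55 in KO. Lss, which encodes lanosterol synthase, read 0.14 and 0.11 in WT and -0.60 and -0.46 in KO. Its 2 other probes were below 0 in both genotypes, with means from -0.76 to -1.34, so the WT direction of Lss depends on the probe, and it was also below 0 with median centring.

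Among the regulation and transport genes, Stard4 fell in both genotypes. Stard4 encodes a cytosolic sterol carrier, and its log2 intensity went from 12.16 (Cy3) and 12.12 (Cy5) at low density to 10.68 and 10.87 at high density in WT. In KO it went from 12.07 and 12.17 to 10.67 and 11.18. The corresponding ratios were -1.28 and -1.44 in WT and -0.89 and -1.5 in KO, and its other 2 probes read between -1.15 and -1.32. Without the dye-swapped array the KO ratio was under 2-fold.

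Insig1, the sterol-sensing retention factor, read -0.37 and -0.47 in WT and -0.94 and -0.98 in KO, where its 1.95-fold lower level missed the rule. Its other probe passed in KO at -1.08, and the brightest probe passed in KO with median centring (-1.06), an offset of 0 (-1.10) and the scanner software's processed signals (-1.21), as did the mean over both probes (-1.02). Srebf2, the regulator of cholesterol genes, read -0.60 and -0.33 in WT and 0.07 and 0.68 in KO. Srebf1, which favours fatty acid genes, read -0.27 and -0.10 in WT and 0.10 and 0.27 in KO. The other 3 Srebf2 probes were below 0 in both genotypes, so the KO direction of Srebf2 depends on the probe. With median centring of the arrays in place of loess, both Srebf genes were below 0 in both genotypes.

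**Figure D2:**
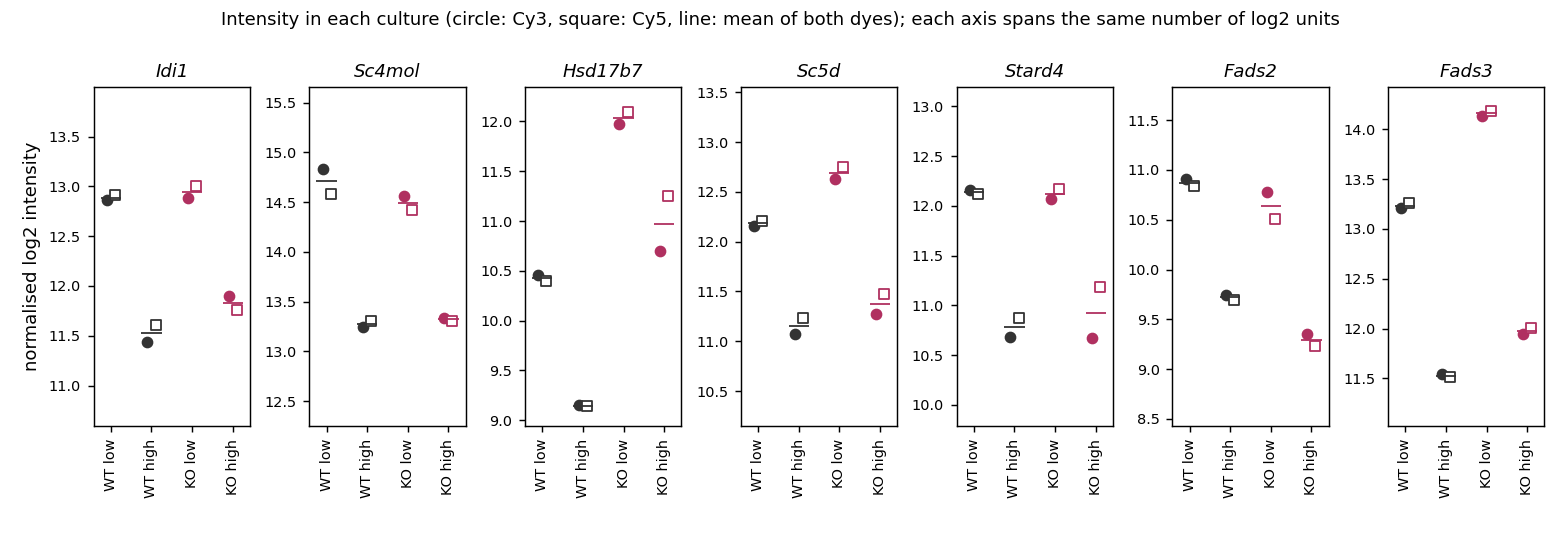
Normalised log2 intensity (y axis) of the 7 genes whose level fell 2-fold or more with density in both genotypes, in each of 4 cultures (x axis, KO as labelled), with circles for Cy3, squares for Cy5 and a line for their mean. In every panel both high density readings lie under both low density readings of the same genotype, which the choice of genes largely fixes. Hsd17b7 lies higher in the cultures labelled KO.

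In the fatty acid arm, the genes that fell were 2 desaturase genes. Fads3, a desaturase family member, read -1.70 and -1.72 in WT and -2.12 and -2.24 in KO, a 3.27-fold and a 4.53-fold lower level, which were the largest falls of any member. Its log2 intensity was 13.21 (Cy3) and 13.26 (Cy5) at low density and 11.54 and 11.51 at high density in WT. In KO the readings were 14.13 and 14.19 at low and 11.95 and 12.01 at high density. A dimmer Fads3 probe read -0.89 in WT and -2.15 in KO.

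Fads2, a desaturase of polyunsaturated fatty acid synthesis, read -1.21 and -1.10 in WT and -1.54 and -1.17 in KO. Its log2 intensity fell from 10.91 (Cy3) and 10.84 (Cy5) to 9.74 and 9.69 in WT and from 10.78 and 10.51 to 9.35 and 9.23 in KO. Fads1, the neighbouring desaturase gene, read -0.46 and -0.49 in WT and -0.46 and -0.06 in KO. The probes of all 3 genes lie within 1 stretch of chromosome 19 in the array annotation (build mm8), Fads3 at chr19:10125196-10125255, Fads2 at chr19:10131305-10131735 and Fads1 at chr19:10263085-10263144, so the genes with the larger falls sit next to each other.

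The enzymes that build the chain itself showed smaller values. Acly, which supplies cytosolic acetyl-CoA, read -0.39 and -0.49 in WT and -0.18 and -0.46 in KO. Acaca, the acetyl-CoA carboxylase gene, read -0.44 and -0.45 in WT and -0.30 and -0.25 in KO. Fasn, the fatty acid synthase gene, read -0.54 and -0.65 in WT and -0.36 and -0.26 in KO. All 3 were below 0 on all 4 arrays, and none reached 2-fold.

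Elongase and stearoyl-CoA desaturase genes were mixed. Elovl5 read 0.09 and -0.12 in WT and 0.36 and 0.04 in KO. Elovl6, which extends palmitate, read -0.14 and 0.16 in WT and -0.69 and -0.42 in KO. Among the desaturases that make monounsaturated fat, Scd1 read -0.08 and -0.50 in WT and -0.46 and -0.58 in KO. Scd2, its paralogue, read 0.06 and -0.04 in WT and 0.37 and 0.54 in KO, so the 2 Scd genes lay on opposite sides of 0 in KO, except with median centring of the arrays, where Scd2 was below 0 as well.

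Both arms had medians below 0 at high density. The median log2 ratio of the cholesterol enzymes was -0.57 in WT and -0.55 in KO, with 16 of 18 genes below 0 in each genotype. That of the fatty acid enzymes was -0.44 in WT and -0.32 in KO, with 8 of 10 below 0. Counted among the genes below 0, Hmgcs1 and Dhcr7 had means of 0.00 in KO and Elovl5 of -0.01 in WT. All probes tested had a median of 0.01 in both genotypes, with 49.2% of them below 0 in WT and 48.9% in KO. In the comparison of the arms, the median of the cholesterol arm minus that of the fatty acid arm was -0.12 in WT, with -0.15 and -0.06 on the single arrays, and -0.23 in KO, with -0.20 and -0.13. This difference between the arms was not tested. The arm medians depend on the processing, as those of the fatty acid enzymes were -0.59 in WT and -0.66 in KO with median centring, beside -0.75 and -0.80 for the cholesterol enzymes. With the mean over all probes of a gene they were -0.29 and -0.31, beside -0.56 and -0.43.

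Smaller falls were counted at 1.4-fold, the least fold change used for arrays in the study's methods. In the cholesterol arm, 11 of 18 genes were at least 1.4-fold lower in each genotype, whereas in the fatty acid arm 3 of 10 were in WT and 4 of 10 in KO. Over the whole module this came to 15 of 32 genes in WT and 17 of 32 in KO, against 18.0% and 15.9% of all probes tested. At 2-fold, 5 of 18 cholesterol enzymes fell in WT and 4 of 18 in KO, and 2 of 10 fatty acid enzymes fell in each.

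**Figure D3:**
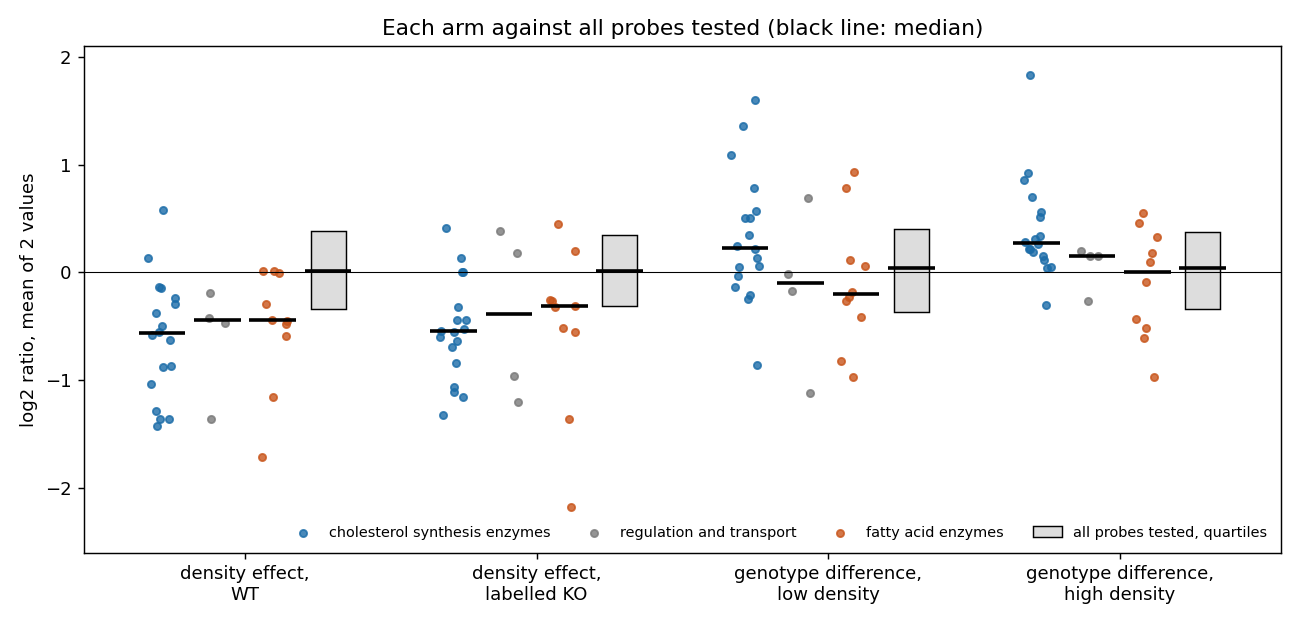
Mean log2 ratio of each gene (y axis) by arm for the density effect in each genotype and the genotype difference at each density (x axis), with black lines for medians and grey boxes for the quartiles of all probes tested. For the density effect most points of all 3 sets lie below 0 in WT, and for the genotype difference at high density 1 of 18 cholesterol enzymes, Sqle, lies below 0, joined by Fdps and Sc4mol with median centring.

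Only the density effect common to both genotypes could be tested, with limma on 1 mean ratio per genotype. Of the members, 17 of 32 had an unadjusted p under 0.05, 16 of them lower at high density, against 14.1% of all probes tested that were lower at that level. Fads3 had a mean log2 change of -1.94 (SE 0.20, n = 2 genotypes, limma adjusted p = 0.0669), Stard4 -1.28 (SE 0.16, limma adjusted p = 0.0719) and Sc4mol -1.30 (SE 0.17, limma adjusted p = 0.0739). No member passed an adjusted p of 0.05 in limma, and neither did any of the 21546 probes, although 6391 had an unadjusted p under 0.05. Fads3 was the 1 member that passed with an offset of 0 and with every channel required to be above background. With the 4 arrays as values and genotype as a random block, 14 members passed, all lower, among 5526 probes, but that fit counts dye-swap repeats as replicates.

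The genotypes were then compared at each density. At low density, 3 cholesterol enzymes were at least 2-fold higher in the cultures labelled KO, Hsd17b7, Lss and Tm7sf2, and the regulator Srebf2 was lower. Among all probes tested, 6.87% were higher and 7.05% lower at low density. At high density only Hsd17b7 passed the rule, being higher, against 6.42% of probes higher and 6.61% lower. The counts of members are thus close to the share over all probes at low density and under it at high density. These contrasts use the same arrays as the density effects.

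Hsd17b7 showed the largest genotype difference of the members. Its log2 intensity in WT was 10.46 (Cy3) and 10.40 (Cy5) at low density and 9.15 and 9.14 at high density. In cultures labelled KO it was 11.97 and 12.10 at low density and 10.70 and 11.25 at high density. All 4 readings labelled KO lay above all 4 WT readings, a 3.04-fold difference at low and a 3.55-fold difference at high density. A dimmer probe of the gene gave differences of only 0.48 and 0.72.

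Lss read 9.68 in both dyes in low density WT and 10.96 (Cy3) and 11.12 (Cy5) in low density KO, a difference of 1.28 and 1.44. At high density the difference was 0.53 and 0.87. Tm7sf2 differed by 1.06 and 1.12 at low density and by 0.72 and 1.12 at high density. Srebf2 read 14.14 and 14.10 in low density WT and 13.04 and 12.97 in low density KO, a difference of -1.10 and -1.13 that was -0.42 and -0.12 at high density. Lss and Srebf2 no longer passed when all probes of each gene were averaged.

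Among the cholesterol enzymes, Sqle lay lowest in the cultures labelled KO, at -0.86 and -0.85 at low density and -0.39 and -0.20 at high density. At the other end of the regulation group, Insig1 read 0.69 higher in both dyes at low density. The median genotype difference of the cholesterol enzymes was 0.23 at low density, with 5 of 18 genes below 0, and 0.27 at high density, with 1 of 18 below 0, against 47.3% and 46.8% of all probes. With median centring Fdps and Sc4mol were below 0 at high density as well as Sqle. That of all probes was 0.04 at each density.

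The fatty acid enzymes had medians of -0.20 at low and 0.00 at high density. On the brightest probes none of the 10 passed the rule at either density. At low density the genotype difference was highest for Fads3, at 0.92 and 0.94, and lowest for Scd2, at -1.03 and -0.91. Fads3 passed at low density on its dimmer probe (1.45), with the mean over both probes (1.19) and with median centring (1.03), and Scd2 passed without replicate 2. At high density Scd1 was highest, at 0.49 and 0.62, and Elovl6 lowest, at -1.01 and -0.94, just under 2-fold. Elovl6 passed with an offset of 0 (-1.01), with processed signals (-1.06) and without replicate 2. Fads1 read below WT in both dyes, at -0.80 and -0.85 at low and -0.80 and -0.42 at high density. The median of the cholesterol arm exceeded that of the fatty acid arm by 0.43 at low and 0.27 at high density, a difference that was not tested. With the mean over all probes of a gene the medians were 0.17 and 0.00 at low density and 0.28 and 0.14 at high density, so the gap was smaller at both.

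**Figure D4:**
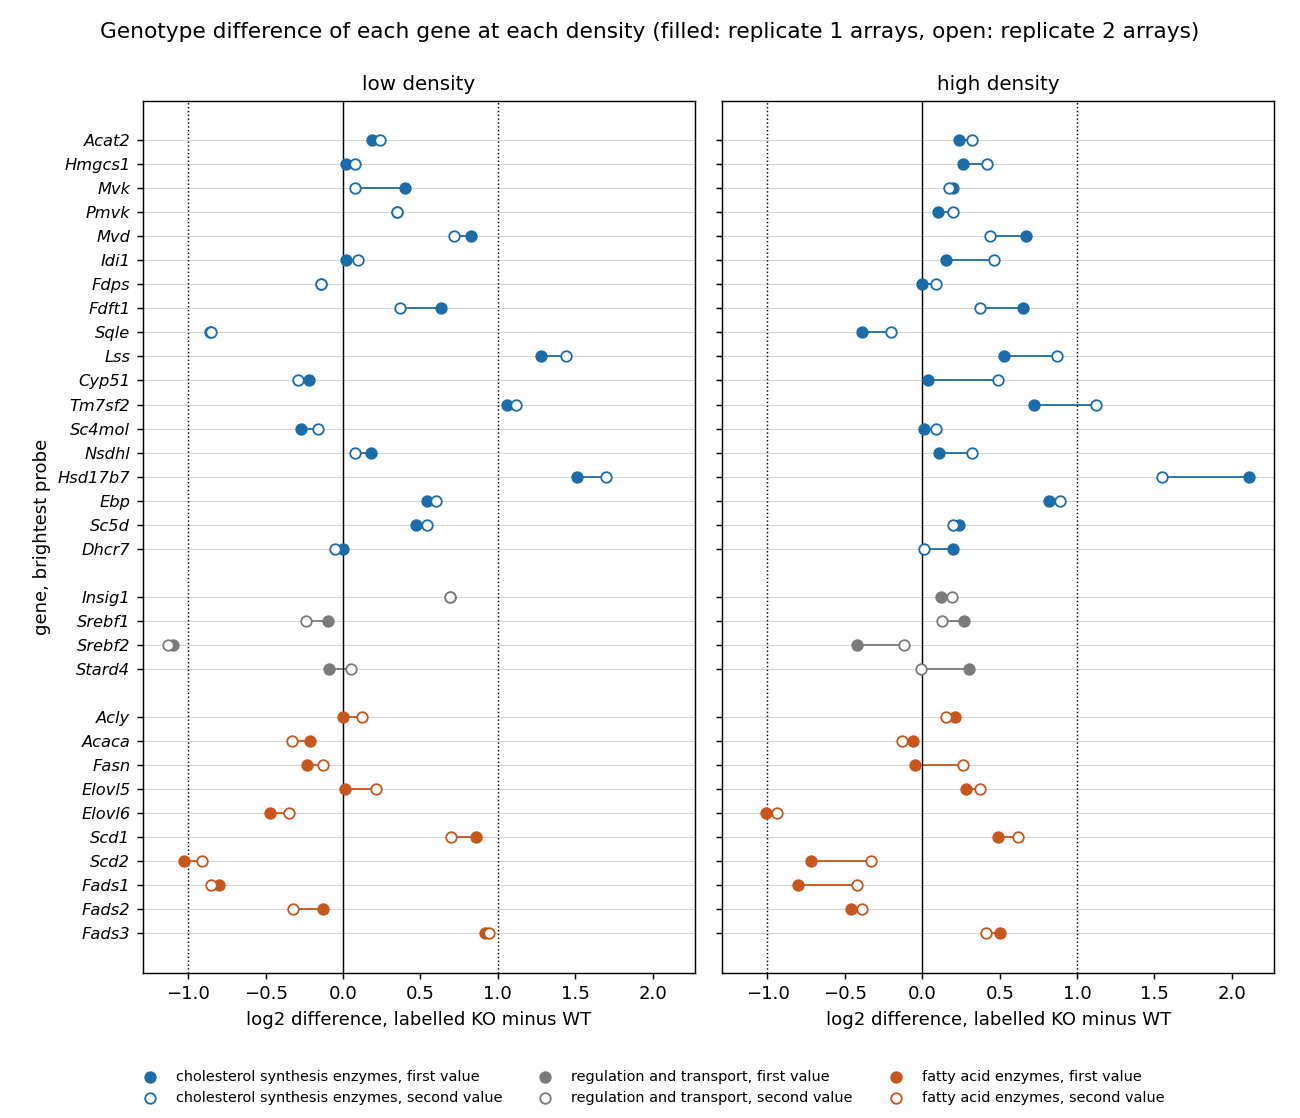
Log2 difference between cultures labelled KO and WT (x axis) for each of the 32 genes (y axis, in pathway order) at low density (left) and high density (right), with filled points for replicate 1 arrays and open points for replicate 2 arrays. Dotted lines mark a 2-fold change. Hsd17b7 lies farthest right in both panels, and most cholesterol enzymes lie right of 0 at high density.

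No member differed 2-fold between the genotypes in its density effect, against 7.99% of all probes tested. This holds for the brightest probes, as dimmer probes passed the rule for Fdps (1.87), Hmgcs1 (1.29), Nsdhl (1.14) and Fads3 (-1.26). The medians of this difference, KO minus WT, were 0.11 for the cholesterol enzymes, 0.27 for the regulation genes and 0.14 for the fatty acid enzymes, and 0.02 for all probes. Srebf2 lay highest at 0.68 and 1.01, and Lss lowest at -0.75 and -0.57. Insig1 read -0.58 and -0.51 and Elovl6 -0.54 and -0.58, and at the other side Sqle read 0.47 and 0.65 and Scd2 0.31 and 0.57. With 1 replicate per genotype these differences could not be tested.

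Genes around the module were taken from a further list of 40 genes of sterol uptake, export, storage and fatty acid handling, 39 of them on the arrays. With density, 5 of 31 tested rose in WT, against 7.63% of all probes, and 4 of 30 rose and 4 fell in KO, against 5.9% and 3.73%. Abca1, the cholesterol exporter, rose at high density by 3.00 and 2.98 in WT and 2.54 and 2.43 in KO. Mylip, a ubiquitin ligase gene induced by sterols, rose by 2.72 and 2.51 in WT and 1.36 and 1.5 in KO. Lpin1, a phosphatidate phosphatase gene, rose in WT (1.62 and 1.66), as did Npc2, a lysosomal sterol carrier (1.06 and 1.22), and the elongase gene Elovl7 (1.95 and 2.05). In KO, Mbtps1, the protease that cleaves the Srebf proteins (0.94 and 1.45), and Acacb, the mitochondrial acetyl-CoA carboxylase gene (0.94 and 1.27), rose. Aacs, Hsd17b12, Acsl1 and Fabp5, genes of acetoacetate use, chain elongation, acyl-CoA formation and fatty acid binding, fell in KO, with means from -1.01 to -1.45.

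Between the genotypes, 6 of 30 genes of this list were higher and 1 was lower in cultures labelled KO at low density, against 6.87% and 7.05% of all probes. At high density 2 of 31 were higher and 3 lower, against 6.42% and 6.61%. Ch25h, the cholesterol hydroxylase gene, was higher by 2.95 and 2.88 at low and 2.97 and 3.20 at high density. Soat1, which esterifies cholesterol, was lower, with -1.54 and -1.39 at low and -1.77 and -1.30 at high density. In the difference of density effects, 4 of 30 genes were lower, Elovl7, Acsl1, Npc1 and Mylip, with means from -1.19 to -2.75.

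Of 10 markers of adipocytes, cells rich in fatty acid enzymes, Plin4 (S3-12 on the array) and Fabp4 rose at high density in WT and fell in KO. Plin4 read 4.29 and 4.44 in WT and -3.75 and -3.51 in KO, and Fabp4 1.28 and 1.47 in WT and -1.27 and -0.89 in KO. Pparg read 0.82 and 0.69 in WT and fell in KO with -1.39 and -1.67, whereas Cebpa rose in WT with 1.09 and 1.26 and read 0.59 and 1.02 in KO. Between genotypes, KO minus WT, Lpl was higher at low (4.83) and high density (4.69), Fabp4 was lower at both (-2.05 and -4.51), and Plin4 was higher at low (2.41) and lower at high density (-5.59). The summed intensity over the 10 genes was 1830 to 1890 in low and 7950 to 8340 in high density WT, and 5570 to 6670 in low and 3170 to 3540 in high density KO. Of the 10 genes, 4 or 5 were above background in a culture, and Adipoq, Plin and Retn were not. Among 5 epithelial markers, Krt19 was lower at high density, with -2.15 and -2.19 in WT and -2.31 and -2.06 in KO, and lower in cultures labelled KO, with means of -1.94 at low and -1.95 at high density. The summed intensity of the 5 was 1460 to 1610 in low and 522 to 573 in high density WT, and 525 to 617 in low and 307 to 339 in high density KO. Epcam, Cdh1 and Krt8 were not above background in any channel. The part of the fibroblast, adipocyte and epithelial markers in the values above was not tested.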

How the data were processed

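RNA of MEFs labelled Lats2 KO or WT, each at low and high density, was measured on 4 Agilent 2-colour arrays, 2 per genotype with exchanged dyes. Per the file headers, the authors extracted the arrays with Agilent Feature Extraction 10.5.1.1, and each deposited scanner file holds mean and background spot intensity for Cy3 and Cy5. The deposited files also hold processed signals and a log10 ratio of Cy5 to Cy3 made by that software. The deposited series matrix held the same log10 ratio, turned to high over low density and rounded, with a median of 0 in each column, and was used only for this check. Other deposited values used were quality flags of 0 or 1 (well above background, outlier, control type), which the authors' software set.

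Intensities were corrected by normexp with an offset of 50, which makes ratios of dim probes smaller, and normalised by loess within each array in R 4.3.3 with limma 3.58.1 (with jsonlite 2.0.0 and statmod 1.5.0). For genotype contrasts the channels were further scaled between arrays (Aquantile) and compared within the same dye. Outlier features were left out, and features of 1 probe were averaged. For density contrasts a probe had to be well above background on each array of the pair in at least 1 of the densities, and for genotype contrasts in both dyes of at least 1 genotype. A change required a mean log2 ratio of 1 or larger in size and the same sign in both values. The common density effect was fitted across all probes with limma and Benjamini-Hochberg adjustment at 0.05, with 4 total degrees of freedom. Tables and figures were made in Python 3.11.15 with numpy 2.4.6, pandas 2.3.3 and matplotlib 3.10.9. The rule and the fit were tested on simulated data.

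Gene names and probe positions (mm8) are those of the array annotation. Promoters came from RefSeq (GRCm38.p6), and positions were not converted between builds. Named were all members, with single-array values for those that changed and for the highest and lowest of each arm, genes of the further list that changed, and Lats2. Some genes of that list are not reported here. The members and lists were chosen with earlier results of these data known. The methods' t-test was not run, since dye-swap arrays are no separate replicates. Alternatives were median centring, an offset of 0, the software's processed signals, a 1.4-fold threshold, stricter and no filters on dim probes, the mean over all probes of a gene, and leaving out each array of a pair. No saturated spots were found, and the number of arrays limits the precision.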

Additional observations from a re-analysis of the deposited data

Results flagged for a closer look

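For 4 members the density effect pointed one way on both WT arrays and the other way on both arrays labelled KO. The KO minus WT difference was -0.66 for Lss, 0.29 for Ebp, 0.37 for Srebf1 and 0.84 for Srebf2. None reached 2-fold, and with 1 replicate per genotype the difference was not tested. With median centring in place of loess, all 4 genes were below 0 in both genotypes, with KO minus WT differences of -0.78 for Lss, 0.01 for Ebp, 0.21 for Srebf1 and 0.63 for Srebf2. With the mean over all probes of a gene, Lss and Srebf2 were below 0 in both. No group held enough samples for a check of single outlying arrays.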

How the results depend on the processing

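The precision is limited by 1 replicate per genotype and density, and signals near background have ratios pulled towards 0. Of 160 values for single members, 63 moved by more than the technical spread between the 2 arrays of a pair with median centring, 35 with the mean over all probes, 15 without either array of each pair, 7 with processed signals and 1 with an offset of 0, and no changed member reversed. The filters on dim probes could not move them, since every member probe was above background in all channels. The median density effect of the cholesterol enzymes was -0.75 in WT and -0.80 in KO with median centring, and -0.75 in WT with processed signals. That of the fatty acid enzymes was -0.59 in WT and -0.66 in KO with median centring and -0.29 in WT with the mean over all probes, and their genotype difference at low density was then 0.00.

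With an offset of 0, 4808 probes changed with density in WT and 3860 in KO, 5275 and 4942 between genotypes at low and high density, and 2588 in the difference of density effects. With processed signals these counts were 5829, 4866, 6313, 5883 and 3150, and at 1.4-fold 8576, 8165, 9387, 8870 and 6125. At 1.4-fold 16, 17, 14, 10 and 6 of 32 members changed, where 22591, 23596, 23339, 23617 and 21546 probes were tested. For the contrasts between genotypes the member counts are close to or under the share over all probes. The members that differed between genotypes at high density numbered 2 with an offset of 0, with processed signals and without either array of each pair, against 1. For the difference of density effects, 1 member changed with the mean over all probes, and 0 to 1 without 1 array of each pair.

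Probes with a common density effect in limma at an adjusted p of 0.05 numbered 3 with median centring, 358 with an offset of 0, 287 with processed signals, 209 when every channel had to be above background and 5526 with the 4 arrays as values, against 0. No paired analysis was possible because the pairs are dye swaps of 1 replicate per genotype.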
